A study of Mus musculus with 40 samples.

Results

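The genes described here are 39 genes of the actin cytoskeleton and of focal adhesions, taken by symbol from a list. They code for actin, for proteins that bind, bundle or turn over its filaments, for myosin subunits, for proteins of the adhesion sites, for a small GTPase and kinases that act on filaments, and for the nuclear factor Srf and the ankyrin repeat protein Ankrd1. All 39 were found among the 17402 genes of a genotype experiment and among the 15399 genes of a cyclosporin A (CsA) experiment, and all 39 were tested among 14424 and 13738 protein-coding genes.

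RNA was sequenced from whole mouse aorta freed of adventitia and perivascular tissue, with 3 aortas pooled in each library. In the genotype experiment all adult male mice carried loxP-flanked Ppp3r1, the gene of the calcineurin (Cn) regulatory subunit B, and all received tamoxifen at 1 mg daily for 5 days, 6 weeks before use. Mice without Cre were controls (Cn-Ctl), and mice with a tamoxifen-inducible Cre driven by the smooth muscle Myh11 promoter were labelled SM-Cn-/-. The study's methods also count Cre carriers without the floxed allele as Cn-Ctl, but the sample labels give Cre-negative mice alone. In the CsA experiment WT mice were compared with WT mice that carried a CsA minipump for 5 days, and since the WT controls had no pump at that stage, CsA and the pump cannot be told apart. Angiotensin II (Ang-II), a vasoconstrictor peptide, was infused at 1 µg/kg/min from an osmotic pump. Controls in the study's methods were operated on without a pump for it, so Ang-II and its pump cannot be told apart. Aortas were taken after 2, 6 and 24 h (2 and 24 h in the CsA experiment). Groups held 3 libraries, except 2 in untreated Cn-Ctl and 2 in Cn-Ctl at 24 h. Treated Cn-Ctl, WT and CsA mice were kept only if systolic pressure exceeded 130 mmHg, whereas all SM-Cn-/- mice were kept, so that genotype and selection cannot be told apart after Ang-II.

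Values are the signal deposited by the authors, a read count per gene scaled for library size. Libraries held 2.73 to 10.25 M reads in the genotype experiment and 18.98 to 38.9 M in the CsA experiment. Ppp3r1 signal ranged from 45.7 to 134 over 10 Cn-Ctl libraries (median 85.6) and from 41.8 to 118 over 12 SM-Cn-/- libraries (median 76.3), and it passed the test at none of the 4 times. These are values of the whole gene, which do not show whether the reads lie in the deleted exons, so they do not check the deletion. For that the study's methods used a PCR on a piece of aorta. The study also reports, by immunoblot, less protein of the regulatory and catalytic Cn subunits in SM-Cn-/- aortic extracts. Smooth muscle markers were abundant in every library (Acta2 at 5679 or more). Heart transcripts were not evenly spread: Myh6, the heart myosin heavy chain, was at 167 to 947 in 6 libraries of the CsA experiment (WT untreated 1, WT Ang-II 2 h 2, WT Ang-II 24 h 1 and 2, CsA alone 1 and 2) and at 60.5 or less in the other 12. CsA alone also differed from untreated WT in 6 of 7 smooth muscle markers (lower), 6 of 6 endothelial, 5 of 5 macrophage and 5 of 5 fat markers (higher). In this comparison 25.2% of all genes tested differed. For 5 fibroblast markers the summed signal overlapped (1164 to 1302 against 753 to 1330). The summed signal of 6 endothelial markers was higher in SM-Cn-/- than in Cn-Ctl without overlap before Ang-II (566 to 736 against 323 to 434), at 2 h (663 to 867 against 299.5 to 554) and at 24 h (1098 to 1165 against 447 to 468), and overlapped at 6 h (579 to 1319 against 486 to 607). The part of these cells in the results below was not tested, and in whole tissue fewer cells of a type and less RNA per cell cannot be told apart.

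Smooth muscle cells carry a contractile apparatus of actin, tropomyosin, calponin and smooth muscle myosin, and a cytoplasmic actin network that is anchored to the matrix through integrins. At an adhesion site integrins bind talin and vinculin, zyxin and paxillin join under tension, and filamins and α-actinins cross-link the filaments. Many of these genes are known targets of Srf, which binds the CArG box and is driven by coactivators that sense free actin or, as with myocardin, act in smooth muscle, while the kinases Rock1 and Rock2 promote filament assembly and contraction. Calcineurin is a calcium-dependent phosphatase, and CsA is an inhibitor of its activity.

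Promoter sequence is shown for 6 members because the CArG box is the known site of Srf, a member, and because 3 of these genes rose at 2 h of Ang-II in Cn-Ctl and 3 did not. RefSeq promoters of build GRCm38.p6, each running from 250 bases before to 50 after a start site, were matched by symbol for 36 of the 39 members. The box, searched on both strands by its 10-base consensus, which reads the same on each, was held by 8 of 43 member promoters (18.6%, 7 genes) against 535 of 32851 promoters of all genes (1.63%). Many members are known Srf targets, so this share describes the list and is not a result of these data. Each stretch is given 5′ to 3′ on the strand of the gene, with the box in capitals. Actg1, Filip1l and Vcl rose, and Srf, Cnn2 and Myl9 did not pass the test. The Filip1l start shown lies inside the gene, which begins at 57353093. Signals are of whole genes and do not show which start was used.
Actg1, chr11:120348531-120348630, minus strand, box 90 bases before the start: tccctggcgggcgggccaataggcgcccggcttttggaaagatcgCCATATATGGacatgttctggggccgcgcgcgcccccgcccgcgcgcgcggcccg
Filip1l, chr16:57549135-57549234, plus strand, box 62 bases before the start: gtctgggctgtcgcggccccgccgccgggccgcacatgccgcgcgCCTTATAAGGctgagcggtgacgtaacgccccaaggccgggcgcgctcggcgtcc
Vcl, chr14:20929148-20929225, plus strand, box 227 bases before the start: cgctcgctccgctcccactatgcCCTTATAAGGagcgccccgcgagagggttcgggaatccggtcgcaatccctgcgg
Srf, chr17:46556190-46556289, minus strand, boxes 82 and 62 bases before the start: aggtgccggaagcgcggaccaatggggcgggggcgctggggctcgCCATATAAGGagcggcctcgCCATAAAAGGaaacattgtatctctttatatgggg
Cnn2, chr10:79988499-79988598, plus strand, box 56 bases before the start: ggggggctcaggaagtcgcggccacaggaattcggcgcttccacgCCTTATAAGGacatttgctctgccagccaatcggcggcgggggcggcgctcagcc
Myl9, chr2:156775258-156775357, plus strand, box 161 bases before the start: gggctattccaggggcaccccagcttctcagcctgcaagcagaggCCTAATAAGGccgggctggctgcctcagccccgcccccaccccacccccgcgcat

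Filip1l, Vcl and Cnn2 held the same 10 letters, and Srf alone among these held the box more than once in 1 promoter. The seventh gene was Fhl2, with a box at each of 2 start sites. The AP-1 site TGANTCA, which is its own reverse complement, was held by 4 of 43 member promoters (9.30%, Actn4, Cald1, Myl12a and Zyx) against 7.81% of all promoters. The TEAD site GGAATG, searched on both strands, was held by 12 of 43 (27.9%, 11 genes, among them Ankrd1, Flnc and Itgb1) against 14.7%. The promoters of Itga5, Tpm4, Enah and Rhob, whose values are given below, held no CArG box in these windows.

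The members were among the most abundant transcripts of the aorta. In each experiment 35 of the 39 lay in the 10% of genes with the highest signal. The shares of all genes given below are not limited to genes of like signal, among which the share called was not counted. Per kilobase of exon, the median signal over the 22 libraries of the genotype experiment was highest for Myl9, the regulatory light chain of smooth muscle myosin (2914), for Csrp1, a LIM protein of the filaments (1133), for Actb (1094) and for Flna (771), and lowest for Pxn, the adaptor paxillin (6.12), Fhl2, a LIM protein (9.66), and Ankrd1 (13.2). In the CsA experiment the same genes stood at the ends, from 2212 for Myl9 to 7.54 for Pxn. Actb and Actg1 code for nearly identical actins, so that the share of reads between them is uncertain.

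At 2 h of Ang-II, 14 of 39 members rose in Cn-Ctl and 0 fell, against 6.23% of all genes tested that changed and 4.72% that rose. The cross-linker Flnc and the fibronectin receptor subunit Itga5 rose most, by log2 differences of 3.67 ± 0.45 (SE) and 3.03 ± 0.36, followed by Ankrd1 (2.11 ± 0.41), Filip1l (1.62 ± 0.28) and Tpm4 (1.40 ± 0.17). Adjusted p-values (limma, Benjamini-Hochberg over all genes) were 1.2e-05, 8.2e-06, 0.0018, 0.00067 and 1.2e-05. The median difference over the members was 0.54, against 0.01 over all genes and 0.22 over the 10% most abundant genes. In WT at 2 h, 16 members rose and 0 fell (21.4% of all genes changed, 11.4% rose), with a median of 0.27 beside 0.15 for the most abundant genes. After quantile normalization, which forces the same distribution of values on each library, 8 members rose and 2 fell in Cn-Ctl and 8 rose and 5 fell in WT. Without untreated Cn-Ctl library 2 or 3 the count in Cn-Ctl was 9 or 8.

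**Figure D1:**
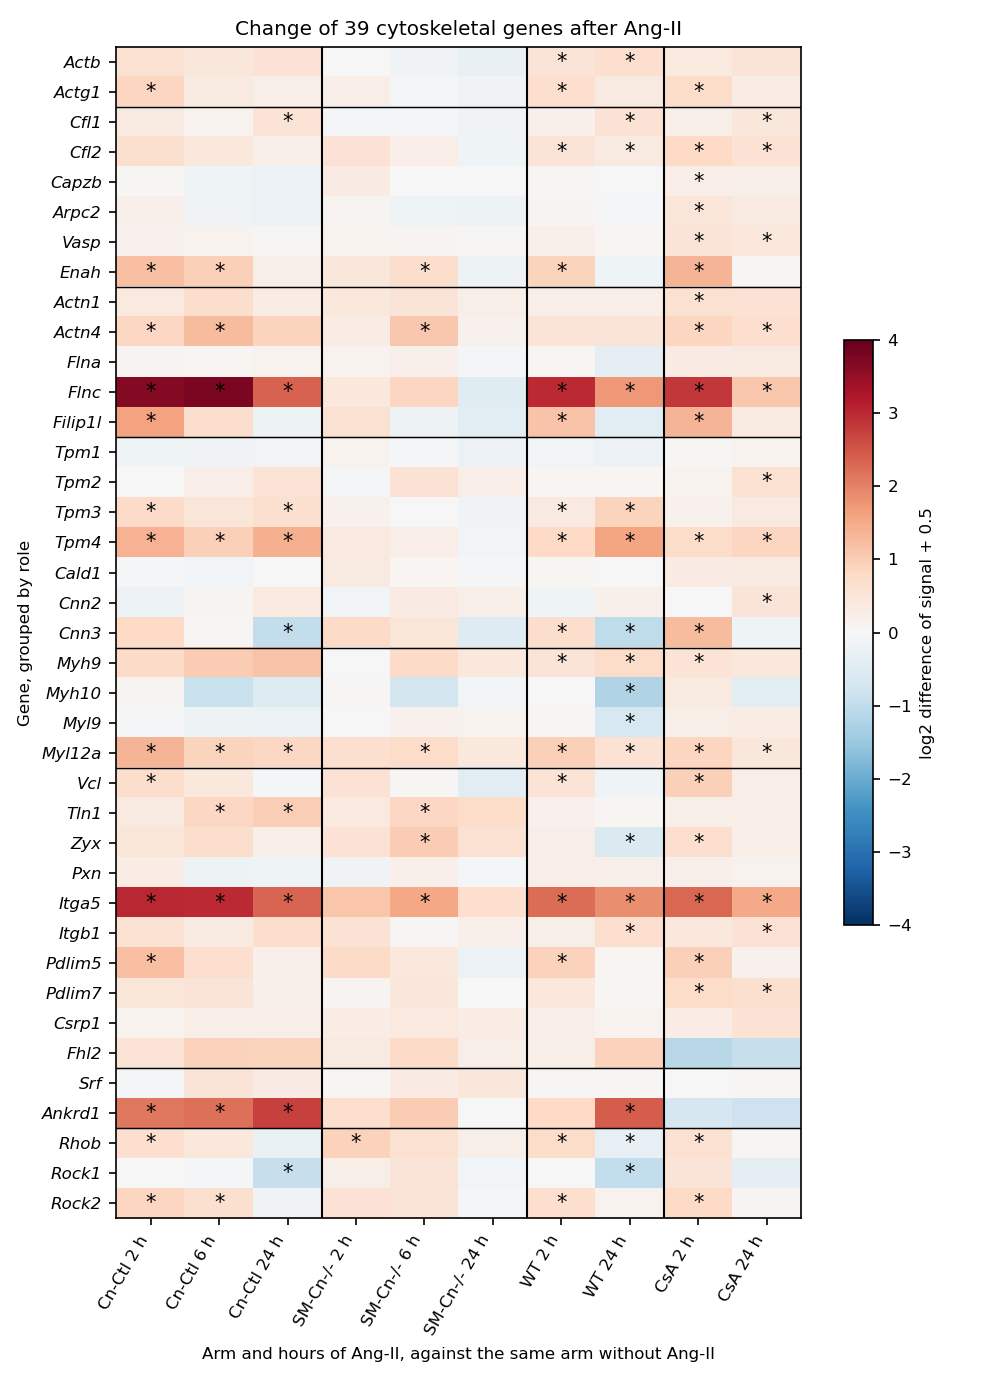
Log2 difference (colour, signal + 0.5) of each of the 39 genes after Ang-II against the same arm without Ang-II, with genes in rows grouped by role and an asterisk where the adjusted p was under 0.05. Flnc and Itga5 were the darkest cells at 2 h in Cn-Ctl, WT and CsA, while SM-Cn-/- held 1 asterisk at 2 h, 6 at 6 h and 0 at 24 h.

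Flnc (ENSMUSG00000068699, chr6:29433256-29461883) codes for filamin C, which links actin filaments to membrane and Z-disc proteins. Its signal was 137 and 111 in untreated Cn-Ctl, 2643, 2129 and 701 at 2 h, 1004, 1513 and 3217 at 6 h, and 628 and 649 at 24 h. The SM-Cn-/- libraries were at 185, 157 and 158 untreated, 189, 165 and 357 at 2 h, 253, 457 and 239 at 6 h, and 120.3, 109 and 129 at 24 h. Each treated Cn-Ctl library lay above each SM-Cn-/- library, while the spread among the 3 Cn-Ctl libraries at 2 h, of which the third was lowest, was itself large.
In the CsA experiment Flnc was at 261, 284 and 385 in untreated WT, 2835, 1681 and 3004 at 2 h, and 1350.0, 1201 and 663 at 24 h. The CsA libraries held 193, 201 and 200.1 before Ang-II, 915, 2122 and 1407 at 2 h, and 519.8, 475 and 298 at 24 h. The treated groups lay above their controls in both arms at 2 h, with log2 differences of 2.99 ± 0.32 (adjusted p = 8.2e-06) in WT and 2.82 ± 0.32 (adjusted p = 4e-05) with CsA. All left-out libraries kept these 2 calls and the Cn-Ctl calls at 2 and 6 h.

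Itga5 (ENSMUSG00000000555, chr15:103344286-103366763) codes for integrin α5, which pairs with integrin β1 to bind fibronectin. Its signal was 313 and 357 in untreated Cn-Ctl, 3530.2, 3207 and 1796 at 2 h, 1635, 2202 and 5073 at 6 h, and 1444 and 1975 at 24 h. SM-Cn-/- signals were 382, 431 and 295 untreated, 689.8, 609.6 and 1142 at 2 h, 1076, 1277 and 910.0 at 6 h, and 634, 547 and 563 at 24 h. In SM-Cn-/- the groups before and after Ang-II did not overlap at any time, but only the difference at 6 h passed the test (1.56 ± 0.32, adjusted p = 0.012), and it did not without untreated library 3 or 6 h library 2 (adjusted p = 0.073 and 0.072).
In WT, Itga5 was at 384, 476 and 725 untreated, 2895, 1762 and 2724 at 2 h, and 2143, 2184 and 1341 at 24 h. CsA libraries were at 304, 369.8 and 376, then 1314, 2363 and 1619, then 1103, 1201 and 771. It thus rose in both arms and at both times, by 2.24 ± 0.28 and 1.85 ± 0.28 in WT and by 2.30 ± 0.28 and 1.53 ± 0.28 with CsA. Its partner Itgb1 rose at 24 h in WT (0.68 ± 0.16) and with CsA (0.58 ± 0.16).

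Tpm4 (ENSMUSG00000031799, chr8:72134975-72153142) codes for a non-muscle tropomyosin that coats cytoplasmic filaments. Its signal was 248 and 242 in untreated Cn-Ctl, 599, 617 and 735 at 2 h, 481, 504 and 437 at 6 h, and 641 and 689.5 at 24 h. The 12 SM-Cn-/- values were 302, 239 and 239.7, then 416, 333 and 276, then 342, 301 and 286, then 236, 253 and 227. The treated Cn-Ctl libraries were high at every time, and at 24 h the SM-Cn-/- libraries were back within the untreated range or just below it.
In WT, Tpm4 was at 199.6, 194 and 212 untreated, 366, 306 and 387 at 2 h, and 589, 715 and 529 at 24 h. The CsA values were 168, 192 and 189, then 259, 379 and 294, then 352, 344 and 311. Its level in WT rose from 2 to 24 h (0.79 ± 0.14, adjusted p = 0.00035), a difference that did not pass with CsA (0.13, adjusted p = 0.55), and without the 6 libraries rich in Myh6 the WT value was 0.49 (adjusted p = 0.11), from 1 library at 24 h that is assumed to vary like the other groups. Among the other tropomyosins, Tpm3 rose at 2 h in Cn-Ctl (0.77 ± 0.16) and WT (0.36 ± 0.12), whereas the abundant smooth muscle forms Tpm1 and Tpm2 passed at 2 h in none of the 4 arms (log2 differences from -0.18 to 0.14).

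Filip1l (ENSMUSG00000043336, chr16:57353093-57573126), a filamin-interacting protein, rose at 2 h and not at 24 h. Its signal was 361 and 547 in untreated Cn-Ctl, 1092, 1375 and 1701 at 2 h, 888, 835 and 518 at 6 h, and 464 and 321 at 24 h. Libraries of SM-Cn-/- held 470.3, 309 and 239, then 634, 470.3 and 408, then 324, 258 and 271, then 262, 251 and 217. The SM-Cn-/- libraries overlapped between untreated and 2 h, and each lay below each Cn-Ctl library at 2 h.
In WT, Filip1l was at 482, 584 and 574 untreated, 1266, 1009 and 1342 at 2 h, and 508, 387 and 316 at 24 h. The values under CsA were 266, 204 and 234, then 527, 771 and 519.9, then 319, 332 and 251. It rose at 2 h by 1.14 ± 0.19 in WT and by 1.35 ± 0.19 with CsA, from a CsA baseline that lay below every untreated WT library.

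Enah (ENSMUSG00000022995, chr1:181896384-182019990) codes for Mena, which lengthens filaments at adhesion sites. Its signal was 561 and 662 in untreated Cn-Ctl, 1679, 1485 and 1142 at 2 h, 1192, 1239 and 1115 at 6 h, and 651 and 787 at 24 h. The SM-Cn-/- signals were 389, 423 and 343, then 597, 442 and 540.1, then 606, 659 and 606, then 345, 294 and 361. No SM-Cn-/- library reached the lowest treated Cn-Ctl library at 2 or 6 h, and Enah passed in SM-Cn-/- at 6 h only (0.70 ± 0.17, adjusted p = 0.026), in 2 of 6 fits that left out 1 library.
In WT, Enah was at 582, 636 and 688 untreated, 1378, 787 and 1468 at 2 h, and 686, 583 and 441 at 24 h. Under CsA it was 307, 335 and 300.5, then 690.0, 996 and 756, then 375, 411 and 222. The rise at 2 h was 1.36 ± 0.25 with CsA and 0.88 ± 0.25 in WT, where it was lost without untreated library 1 or treated library 1 or 3 (adjusted p = 0.064, 0.079 and 0.088).

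Ankrd1 (ENSMUSG00000024803, chr19:36111961-36120099) is an ankyrin repeat protein known to be induced by mechanical load. Its signal was 9.98 and 17.8 in untreated Cn-Ctl, 55.1, 51.8 and 72.6 at 2 h, 62.7, 43.9 and 94.5 at 6 h, and 77.9 and 108 at 24 h. Among SM-Cn-/- libraries it was 37.3, 20.8 and 10.2, then 38.5, 20.2 and 42.4, then 37.7, 48.7 and 36.3, then 22.4, 19.5 and 17.2. It rose in Cn-Ctl at all 3 times and passed in SM-Cn-/- at none, and the calls at 2 and 6 h were lost without untreated Cn-Ctl library 2 (adjusted p = 0.079 and 0.091).
In WT, Ankrd1 was at 39.8, 16.3 and 17 untreated, 34.7, 42.4 and 39.5 at 2 h, and 164, 135 and 83.6 at 24 h. CsA values were 56.2, 88.2 and 18.7, then 25.0, 31.4 and 28.0, then 30.8, 30.7 and 16.7. The first WT value and the first 2 CsA values came from libraries rich in Myh6 (223, 568 and 947), as did the first 2 WT values at 24 h. Without the 6 libraries rich in Myh6, the WT difference at 24 h was 2.30 ± 0.32 (2.44 ± 0.45 with them) and the CsA difference at 24 h was 0.42 ± 0.30 (-0.84 with them). WT at 24 h and CsA alone then hold 1 library each, which is assumed to vary like the other groups.
Fhl2 moved with Myh6 more closely than Ankrd1 did. Its signal was 33.2, 48.6 and 10.6 with CsA alone, 10.4, 13.6 and 11.1 at 2 h and 12.5, 12.4 and 15.4 at 24 h, and in WT 17, 13.5 and 11.1 untreated, 16, 19.5 and 13.6 at 2 h and 27.6, 37.1 and 17.7 at 24 h. The 2 highest CsA and the 2 highest WT values came from libraries rich in Myh6. In the genotype experiment, where Myh6 reached 13.7 at most, Fhl2 was at 17.4 and 13 in untreated Cn-Ctl, 26.4, 19.1 and 21.5 at 2 h, 24.5, 24.9 and 41.2 at 6 h, and 25 and 31.5 at 24 h. The SM-Cn-/- libraries held Fhl2 at 12.2, 12.4 and 11.3, then 11.5, 17.6 and 18.8, then 17.8, 22.9 and 22.4, then 15.7, 14.4 and 12.1. Each treated Cn-Ctl library was above both untreated ones, and at 24 h each SM-Cn-/- library was below both Cn-Ctl libraries. Over the 18 libraries of the CsA experiment the Pearson correlation of log2 signal with Myh6 was 0.78 for Fhl2 and 0.56 for Ankrd1, and it was negative for the other 37 members. These libraries share their groups and Fhl2 and Ankrd1 are both expressed in heart, so the values are a description.

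**Figure D2:**
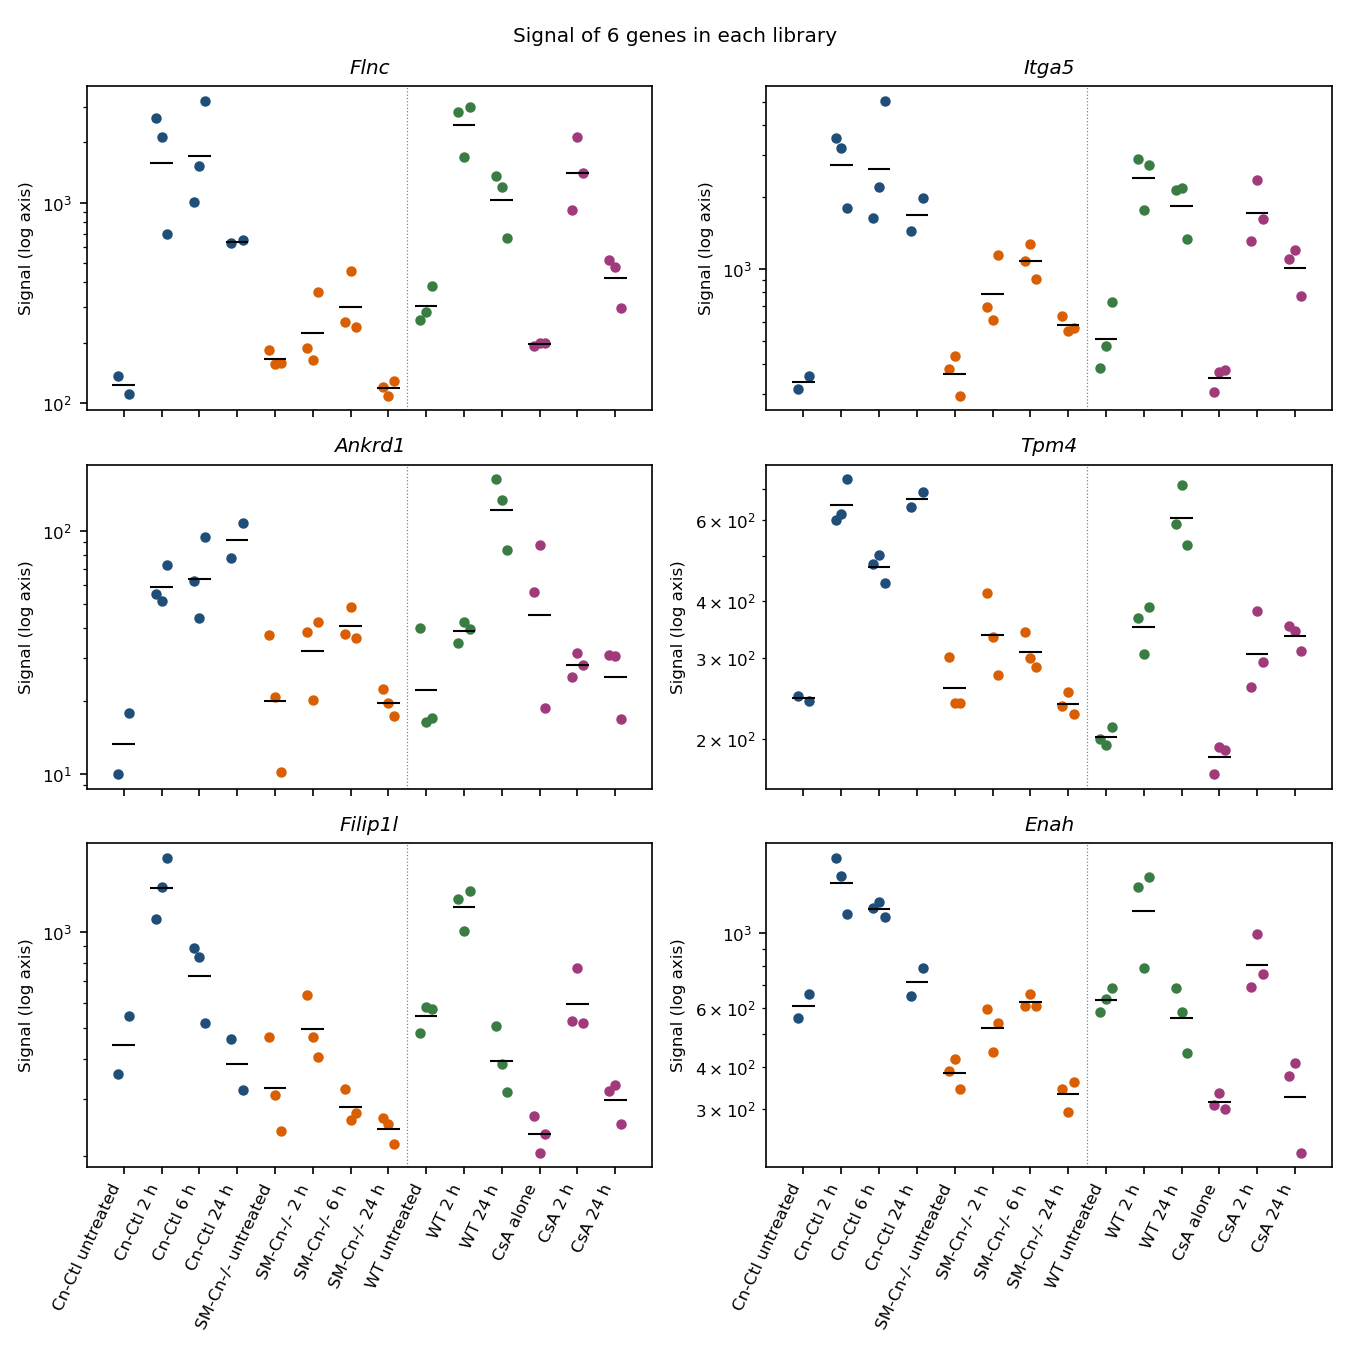
Signal (log axis) of Flnc, Itga5, Ankrd1, Tpm4, Filip1l and Enah in each library, 1 point a library, with the geometric mean of each group as a bar and the genotype and CsA experiments on the left and right of the dotted line. In SM-Cn-/- (orange) the treated groups of Flnc stayed between 109 and 457, below the lowest treated Cn-Ctl library at 628.

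**Figure D3:**
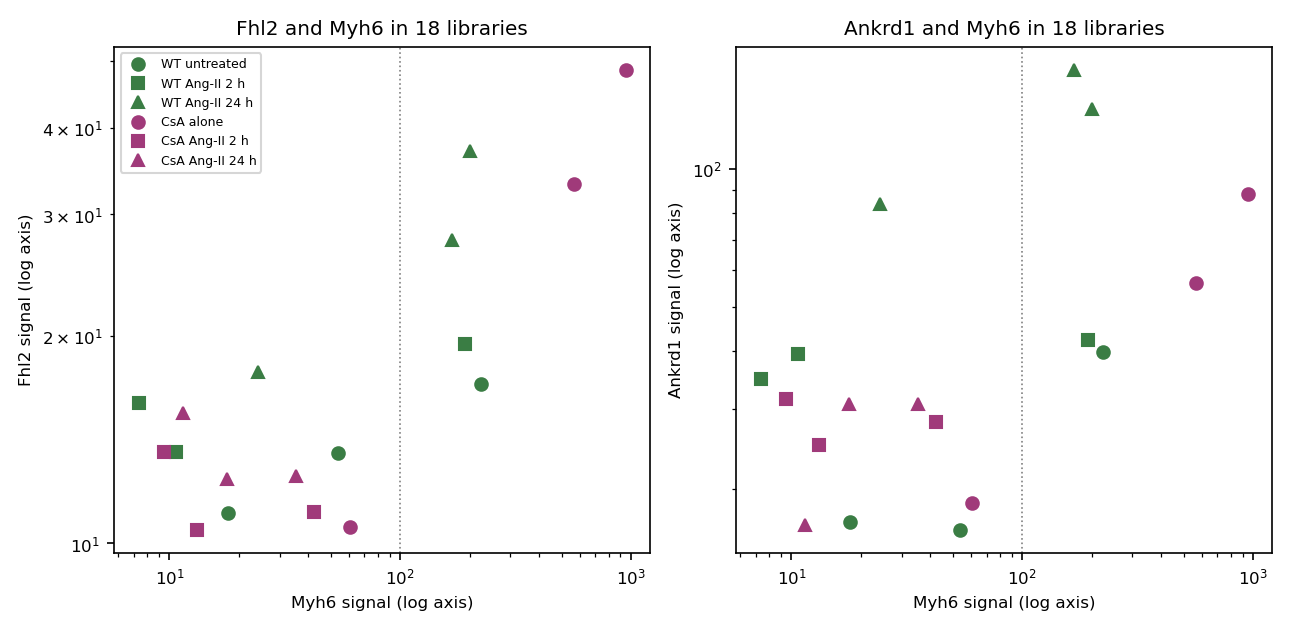
Signal of Fhl2 (left) and Ankrd1 (right) against that of the heart gene Myh6 in the 18 libraries of the CsA experiment, both axes logarithmic, 1 point a library, with a dotted line at a Myh6 signal of 100. The highest Fhl2 value (48.6) lay in the library with the highest Myh6 (947), and the 3 WT libraries at 24 h held the highest Ankrd1 values but for 1 CsA library.

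The remaining members chosen for library values follow, actins and cross-linkers first. Actb, cytoplasmic β-actin, was at 3030.2 and 3111 in untreated Cn-Ctl, 5902, 4829 and 3651 at 2 h, 3742, 3906 and 5104 at 6 h, and 4414 and 4665 at 24 h. Actb in SM-Cn-/- was at 2829, 2533 and 2387, then 2491, 2108 and 3299, then 2145, 2446 and 2444, then 2135, 2071 and 2020.4. Each treated Cn-Ctl library lay above each SM-Cn-/- library of its time. Actb in WT was at 1522, 1842 and 2318 untreated, 2706, 2364 and 2930.1 at 2 h, and 3147, 3175 and 2579.6 at 24 h, and in CsA at 1241, 1466 and 1434, then 1583, 2049 and 1806, then 1888, 2103 and 1928. At 24 h the WT libraries lay above those with CsA.
For Actg1, cytoplasmic γ-actin, untreated Cn-Ctl libraries held 1679.6 and 1596, with 3225, 2887 and 2867 at 2 h, 1967, 2112 and 2281 at 6 h, and 1846 and 2015 at 24 h. SM-Cn-/- aortas held Actg1 at 1581, 1534 and 1413, then 1885, 1669 and 1898, then 1682, 1491 and 1221, then 1471, 1483 and 1139. At 2 h each Cn-Ctl library was above each SM-Cn-/- library. WT aortas held Actg1 at 1358, 1481 and 1909.5, then 2610.5, 2328 and 2638 and then 2103, 2208 and 1777, and CsA aortas at 1191, 1289 and 1282, then 1728, 2427 and 2099, then 1549, 1581 and 1487. The 2 h libraries lay above the untreated ones in both arms.
Flna, filamin A, which joins crossing filaments, was at 7496 and 8169.7 in untreated Cn-Ctl, 9168, 9307 and 6827 at 2 h, 6973, 7732 and 10251 at 6 h, and 10057 and 7409 at 24 h. Flna in SM-Cn-/- was at 5965, 7001 and 6333, then 6514, 6480.1 and 8251, then 6852, 7741 and 7603, then 5760.3, 5513 and 7095. The treated and untreated groups overlapped in Cn-Ctl. Flna in WT was at 10323, 10962 and 12137 untreated, 13133, 9798 and 12240.1 at 2 h, and 10066, 7488 and 8715 at 24 h, and in CsA at 6212, 6548 and 6538, then 7427, 9491 and 7452, then 9152, 9216 and 6765. The CsA libraries without Ang-II were the lowest of the 6 groups.
For Actn1, α-actinin 1, a cross-linker of stress fibres, untreated Cn-Ctl libraries held 1619 and 1590.3, with 2201, 2177 and 2002 at 2 h, 2513, 2961 and 2465 at 6 h, and 2189.7 and 1781 at 24 h. SM-Cn-/- aortas held Actn1 at 1017, 1393 and 1191, then 1596, 1599.9 and 1642, then 2026, 1685 and 1443, then 1541, 1538 and 1133. Values at 2 and 6 h were above the untreated ones in both genotypes, but Actn1 passed in neither. WT aortas held Actn1 at 1546, 1898 and 2181, then 2449, 1769 and 2424 and then 2388, 2206 and 1924, and CsA aortas at 1027, 1064 and 999, then 1409.8, 1848 and 1457, then 1699.9, 1778 and 1188. Untreated WT and CsA alone did not overlap.
Actn4, α-actinin 4, its broadly expressed relative, was at 836 and 998 in untreated Cn-Ctl, 1925, 1787 and 1204 at 2 h, 1751, 2256 and 2728 at 6 h, and 1631 and 1734 at 24 h. Actn4 in SM-Cn-/- was at 636, 884 and 733, then 811, 755 and 1227, then 1458, 1560.5 and 1725, then 867, 882 and 769. The highest libraries of both genotypes were at 6 h. Actn4 in WT was at 983, 1224 and 1539.8 untreated, 1990.2, 1393 and 1970.4 at 2 h, and 1852, 1888 and 1509.9 at 24 h, and in CsA at 738, 753 and 776, then 1296, 1660.3 and 1198, then 1383, 1366 and 920.4. CsA alone lay below all other groups of that experiment.

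Tropomyosin, calponin and myosin members come next. For Tpm1, a tropomyosin of muscle filaments, untreated Cn-Ctl libraries held 2442 and 2388, with 2239.8, 2222 and 1962 at 2 h, 2163, 2248 and 2122 at 6 h, and 2733 and 1850.3 at 24 h. SM-Cn-/- aortas held Tpm1 at 1638, 1697 and 1519, then 1820.0, 1704 and 1779.7, then 1613, 1569 and 1487, then 1375, 1354 and 1435. Each SM-Cn-/- library lay below each Cn-Ctl library, and the difference passed the test at 24 h only (-0.70 ± 0.19, adjusted p = 0.031). WT aortas held Tpm1 at 1688, 1952 and 2165, then 1863, 1609 and 1945 and then 1949.9, 1440.0 and 1596, and CsA aortas at 1191, 1454 and 1060.5, then 1179.7, 1474 and 1171, then 1459.9, 1519.6 and 1136. Values with CsA were below those of untreated WT.
Cnn3, the acidic calponin, was at 662 and 814 in untreated Cn-Ctl, 1287, 1374 and 1209 at 2 h, 946, 917 and 500.1 at 6 h, and 463 and 291 at 24 h. Cnn3 in SM-Cn-/- was at 688, 574 and 420.3, then 1128, 845 and 839, then 806, 803 and 719, then 377, 396 and 386. The 2 h libraries were the highest of both genotypes. Cnn3 in WT was at 529.5, 609 and 594 untreated, 1060.3, 759 and 1036 at 2 h, and 325, 278 and 255 at 24 h, and in CsA at 267, 294 and 296, then 606, 825 and 667, then 277, 304 and 196. Here too the 2 h libraries were the highest of each arm, and at 24 h WT lay below untreated WT while CsA overlapped CsA alone.
For Myl9, the smooth muscle myosin regulatory light chain, untreated Cn-Ctl libraries held 3779 and 3556, with 4236, 3775 and 2595 at 2 h, 2930.0, 2794 and 4069 at 6 h, and 4127 and 2353 at 24 h. SM-Cn-/- aortas held Myl9 at 2795, 3429.7 and 2957, then 2608, 2662 and 4325, then 3625, 3356 and 3429, then 3337, 3416 and 3255. Treated and untreated libraries overlapped at each time in both genotypes. WT aortas held Myl9 at 2867, 3343 and 3895, then 3667, 3078 and 3754 and then 2411, 1711 and 2465, and CsA aortas at 1922, 2207 and 2075, then 2192, 2774 and 2401, then 2675, 2825 and 2102. In WT the 24 h libraries lay below the untreated ones, and with CsA the 24 h libraries overlapped those of CsA alone.

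Adhesion site proteins, the kinase Rock2 and Srf complete the set. Vcl, vinculin, which ties talin to actin, was at 685 and 641 in untreated Cn-Ctl, 1212, 1049 and 1016 at 2 h, 807, 1161 and 729.6 at 6 h, and 684 and 564 at 24 h. Vcl in SM-Cn-/- was at 549.6, 578 and 456, then 843, 769 and 725, then 575, 579.9 and 478, then 429, 387 and 344. The 2 h libraries were above the untreated ones in both genotypes. Vcl in WT was at 550.1, 601 and 688 untreated, 1056, 697 and 995 at 2 h, and 660.0, 518 and 462 at 24 h, and in CsA at 349, 379.9 and 346, then 601, 845 and 643, then 464, 506 and 334. CsA alone lay below untreated WT without overlap.
For Zyx, zyxin, which joins adhesion sites under tension, untreated Cn-Ctl libraries held 358 and 335, with 488, 549 and 433 at 2 h, 559, 528 and 599 at 6 h, and 577 and 303 at 24 h. SM-Cn-/- aortas held Zyx at 350.1, 383 and 279, then 433, 399.9 and 721, then 680.2, 673 and 656, then 499.6, 534 and 493. The 6 h libraries were above the untreated ones in both genotypes, a difference that passed the test in SM-Cn-/- and not in Cn-Ctl (adjusted p = 0.11). WT aortas held Zyx at 762, 765 and 945, then 1091, 808 and 1085 and then 609.9, 488 and 559, and CsA aortas at 499, 508 and 587, then 785, 972 and 774, then 672, 738 and 518. At 24 h WT lay below untreated WT, while 2 of 3 CsA libraries lay above CsA alone.
Pdlim7, a PDZ and LIM protein of actin filaments, was at 363 and 341 in untreated Cn-Ctl, 596, 573 and 340.0 at 2 h, 407, 413 and 736 at 6 h, and 424 and 381 at 24 h. Pdlim7 in SM-Cn-/- was at 274, 319 and 275, then 266, 266 and 439.8, then 352, 370.4 and 486, then 257, 306 and 323. Cn-Ctl overlapped between untreated and 2 h through a single library at 340.0. Pdlim7 in WT was at 384, 434 and 525 untreated, 668, 474 and 654 at 2 h, and 532, 432 and 416 at 24 h, and in CsA at 233, 258 and 273, then 390.3, 499 and 398, then 431, 436 and 334. CsA alone was below every other group of its experiment.
For Rock2, a kinase that promotes contraction, untreated Cn-Ctl libraries held 296 and 271, with 539, 520.0 and 490.5 at 2 h, 391, 539.9 and 398 at 6 h, and 250.4 and 264 at 24 h. SM-Cn-/- aortas held Rock2 at 209.6, 257 and 209, then 399, 323 and 293, then 348, 301 and 305, then 246, 222 and 184. Cn-Ctl libraries were higher at 2 and 6 h than untreated or at 24 h. WT aortas held Rock2 at 319, 331 and 336, then 594, 414 and 569.8 and then 389, 361 and 329, and CsA aortas at 249.9, 266 and 209, then 366, 507 and 401, then 280.1, 269 and 230.4. Both arms were highest at 2 h.
Srf, the CArG box factor, was at 66.3 and 62.3 in untreated Cn-Ctl, 54.3, 71.3 and 59.2 at 2 h, 91.9, 86.9 and 96.4 at 6 h, and 109.8 and 59.2 at 24 h. Srf in SM-Cn-/- was at 64.7, 57.5 and 49.3, then 56.7, 50.5 and 73.3, then 74, 74 and 66.4, then 83.7, 69.4 and 80.7. Cn-Ctl and SM-Cn-/- differed at 6 h without overlap, but Srf passed between genotypes at no time. Srf in WT was at 109, 122 and 142 untreated, 131, 116 and 135 at 2 h, and 130.5, 133 and 117 at 24 h, and in CsA at 97.7, 88.4 and 89.2, then 82, 107 and 84.2, then 94.1, 95.8 and 97.2. Each CsA library lay below each WT library of its time.

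The other members that rose at 2 h in Cn-Ctl did so by less. These included Actg1 (0.87 ± 0.19) and Vcl (0.72 ± 0.19), whose untreated and 2 h libraries lay apart. Pdlim5, a PDZ and LIM protein of α-actinin (1.21 ± 0.24), Myl12a, a regulatory light chain of non-muscle myosin (1.34 ± 0.20), Rock2 (0.86 ± 0.18), Actn4, α-actinin 4 (0.81 ± 0.24) and Enah (1.22 ± 0.18) made up the rest with Tpm3 and Rhob. After quantile normalization Actg1, Vcl, Actn4, Rhob, Tpm3 and Rock2 no longer passed in this comparison (adjusted p = 0.31, 0.59, 0.65, 0.46, 0.099 and 0.17).
Rhob, a small GTPase with rapid turnover, was the 1 member that passed in SM-Cn-/- at 2 h. Its signal went from 219, 224 and 163 to 366, 371 and 391 there (0.91 ± 0.17, adjusted p = 0.0083) and from 249.6 and 248 to 371, 442 and 379.9 in Cn-Ctl (0.67 ± 0.19, adjusted p = 0.039). It also rose from 378, 399 and 473 to 702, 704 and 673 in WT and from 367, 397 and 357 to 559, 593 and 549 with CsA, and the groups lay apart in every arm. Rhob at 6 h was at 379.7, 349 and 279 in Cn-Ctl and 344, 335 and 252 in SM-Cn-/-. The 24 h values of Rhob were 245 and 173 for Cn-Ctl, 265, 209 and 241 for SM-Cn-/-, 322, 310.2 and 357 for WT, and 352, 397 and 408 with CsA, with each library below every 2 h library of its arm. The SM-Cn-/- call was lost without untreated library 3 (adjusted p = 0.091).

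The SM-Cn-/- aorta thus held 1 member called at 2 h (1.13% of all genes changed, 0.984% higher), 6 at 6 h (2.34%, 1.50% higher) and 0 at 24 h (0.790%). At 24 h 7 members had an unadjusted p under 0.05, and edgeR called 0 as well. The share of all genes under that unadjusted limit is not given, so this count and the like counts below have no background. The members that rose at 6 h were Itga5, Actn4 (1.08 ± 0.22), Zyx (1.00 ± 0.21), Tln1 (0.82 ± 0.19), Myl12a (0.72 ± 0.18) and Enah. The median over the members at 2 h was 0.34, beside 0.19 for the most abundant genes. The count at 2 h was 2 without untreated library 1, 0 without library 3 and 7 with a replicate block in the fit. That at 6 h was 1 without untreated library 3 or 6 h library 2.

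In Cn-Ctl 9 members were called at 6 h, all higher (3.97% of all genes changed, 2.72% higher), and 10 at 24 h, 8 higher and 2 lower (5.62%, 3.22% higher, 2.39% lower). Flnc, Itga5, Ankrd1, Tpm4 and Myl12a were higher at all 3 times. Tln1, talin, rose at 6 h (0.82 ± 0.21) and 24 h (0.98 ± 0.23), and Cfl1, cofilin 1, which severs filaments, rose at 24 h (0.55 ± 0.16). Cnn3 went from 662 and 814 to 463 and 291 at 24 h, and Rock1 from 700.4 and 833 to 407 and 401 at 24 h, so that both fell, by 1.00 ± 0.28 and 0.92 ± 0.25 on the log2 scale. The count at 6 h was 3 without untreated library 2. At 24 h it was between 3 and 5 when any 1 of the 4 libraries was left out.

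In WT at 24 h, 11 members were higher and 6 lower (35% of all genes changed, 18.1% higher and 16.9% lower). Ankrd1 (2.44 ± 0.45), Itga5 (1.85 ± 0.28), Flnc (1.74 ± 0.32), Tpm4 (1.58 ± 0.14), Tpm3 (0.90 ± 0.12) and Myh9, the non-muscle myosin heavy chain IIA (0.73 ± 0.14), rose. Myh10, the heavy chain IIB, fell by 1.21 ± 0.18, Cnn3 by 1.02 ± 0.17, Rock1 by 0.97 ± 0.22 and Myl9 by 0.63 ± 0.18 on the log2 scale. Zyx went from 762, 765 and 945 to 609.9, 488 and 559, and Rhob from 378, 399 and 473 to 322, 310.2 and 357, both lower without overlap. Without the 6 libraries rich in Myh6, which left 1 WT library at 24 h, 5 members were called.
With CsA, 21 members rose at 2 h (20.1% of all genes changed, 12.3% rose) and 12 at 24 h (8.98%, 5.20% rose), and none fell. The 7 smooth muscle markers summed to 16576 to 18672 with CsA alone, and without overlap to 20201 to 26128 at 2 h and 19353 to 27940 at 24 h. At 2 h the 5 macrophage markers were lower without overlap (96.6 to 109 against 175 to 261). The part of these shifts in the counts was not tested. The members called at 2 h with CsA and not in WT were Arpc2, Capzb, Vasp, Actn1, Actn4, Zyx and Pdlim7, and the difference between the 2 responses passed for none of them. After quantile normalization 16 members rose and 3 fell at 2 h with CsA. Without CsA alone library 1 or 2 the count at 24 h was 3 or 7, without CsA library 1 or 2 at 24 h it was 2 each, and without the libraries rich in Myh6 it was 11 at 2 h and 0 at 24 h.

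Between 2 and 24 h more members fell than rose in each arm, though after quantile normalization not in Cn-Ctl or WT. Some of them had not passed as higher at 2 h (7 of 8 in SM-Cn-/-). The number that fell was 9 for Cn-Ctl (7.37% of all genes changed, 5.43% fell) and 8 for SM-Cn-/- (3.65%, 1.60% fell). WT had 13 that fell and 6 rose (36.2%, 19.1% fell, 17.1% rose), and with CsA 11 fell and 1 rose (18% changed, 10.6% fell, 7.43% rose). After quantile normalization the splits were 3 lower and 3 higher, 4 lower and 0 higher, 11 lower and 13 higher, and 10 lower and 8 higher. Cnn3 fell by 1.81 ± 0.25 for Cn-Ctl, 1.26 ± 0.23 for SM-Cn-/-, 1.72 ± 0.17 for WT and 1.44 ± 0.17 for CsA. Filip1l fell by 1.82 ± 0.28, 1.03 ± 0.25, 1.59 ± 0.19 and 1.00 ± 0.19 in the same order. Flnc fell by 1.24 ± 0.32 in WT and by 1.74 ± 0.32 with CsA. Enah, Pdlim5, Vcl, Rhob and Rock2 also fell in all 4 arms. Tpm4 (0.79 ± 0.14), Tpm3 (0.53 ± 0.12) and Ankrd1 (1.65 ± 0.45) rose in WT. The SM-Cn-/- count was 2 without 2 h library 1, or without 24 h library 2 or 3, and 4 without 2 h library 2, and the Cn-Ctl count was 4 without 24 h library 3.

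Before Ang-II the genotypes did not differ in any member that passed the test (0.0139% of all genes did). Under an unadjusted p of 0.05 there were 8 members, without the share of all genes at that limit, and edgeR called 0. The median over the members was -0.28, with -0.10 for the most abundant genes. At 2 h of Ang-II 12 members were lower in SM-Cn-/- than in Cn-Ctl (3.70% of all genes differed, 2.97% lower), at 6 h 7 were lower and 1, Pxn, was higher (1.98%, 1.44% lower, 0.534% higher), and at 24 h 13 were lower (4.94%, 2.68% lower). The summed signal of 7 smooth muscle markers was also lower in SM-Cn-/- without overlap before Ang-II (21025 to 24474 against 28646 to 29300.4), at 6 h (23439 to 29326 against 32452 to 34459.6) and at 24 h (24667 to 27525 against 27574 to 49615), and overlapped at 2 h (25451 to 31999 against 27435 to 35719). The medians were -0.49, -0.36 and -0.51, beside -0.17, -0.09 and -0.02 for the most abundant genes.
Flnc was lower by 2.82 ± 0.40, 2.49 ± 0.40 and 2.42 ± 0.45 on the log2 scale at the 3 times (adjusted p = 0.00016, 0.0013 and 0.0024), and no left-out library ended these calls. Enah (-1.44 ± 0.17, -0.92 ± 0.17 and -1.11 ± 0.18), Tpm4 (-0.94 ± 0.15, -0.61 ± 0.15 and -1.48 ± 0.17), Itga5 (-1.80 ± 0.32, -1.29 ± 0.32 and -1.54 ± 0.36) and Actb (-0.86 ± 0.22, -0.85 ± 0.22 and -1.13 ± 0.24) were lower at all 3 times. Filip1l was lower at 2 and 6 h (-1.46 ± 0.25 and -1.36 ± 0.25), and Ankrd1 at 24 h (-2.20 ± 0.41).
Pxn was at 33.4, 36.8 and 47.8 in Cn-Ctl and 63.4, 73.3 and 57.1 in SM-Cn-/- at 6 h (0.72 ± 0.18). At 2 h, 5 members passed after quantile normalization, and the count was 5 to 7 without Cn-Ctl library 1 or 2 or SM-Cn-/- library 1 or 2. It was 3 to 5 at 6 h without Cn-Ctl library 1 or 2 or SM-Cn-/- library 2 or 3, and 5 to 8 at 24 h without Cn-Ctl library 3 or SM-Cn-/- library 2.

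**Figure D4:**
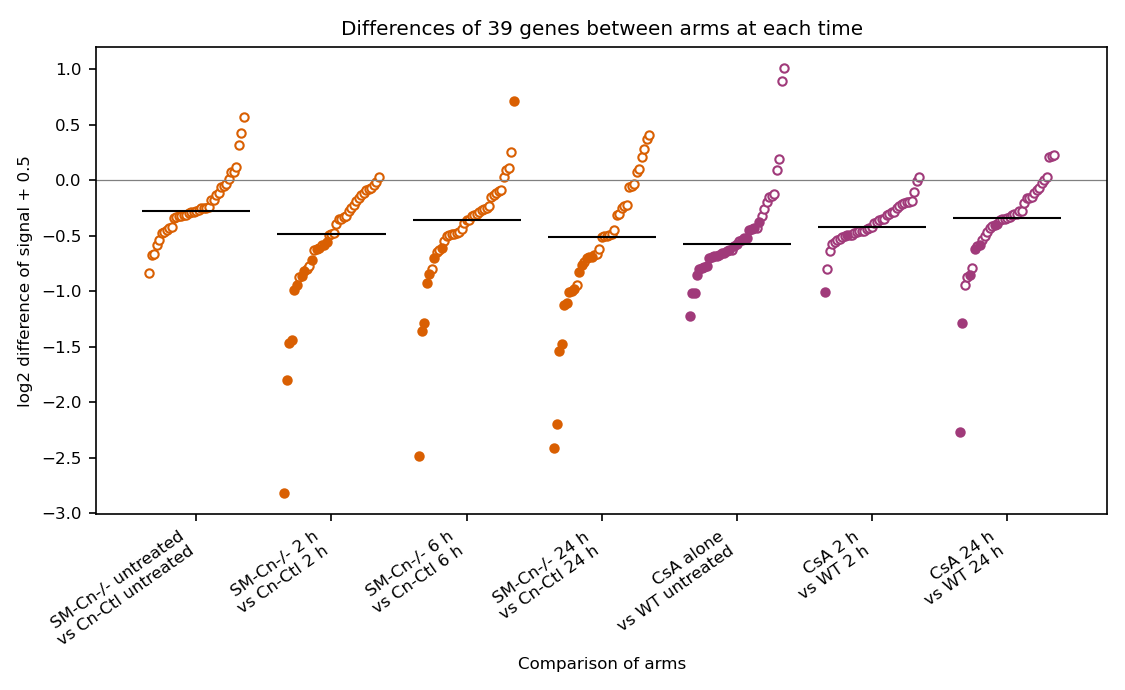
Log2 difference of each of the 39 genes between arms at the same time, SM-Cn-/- minus Cn-Ctl (orange) and CsA minus WT (purple), sorted within each comparison, filled where the adjusted p was under 0.05 and with the median as a bar. All medians lay below 0, from -0.57 in CsA alone to -0.28 in untreated SM-Cn-/-, where no point is filled.

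The test of the difference itself, the response in SM-Cn-/- minus that in Cn-Ctl, passed for 2 members at 2 h (0.513% of all genes, 0.492% lower), 0 at 6 h (0.0624%, with 6 members at an unadjusted p under 0.05 and 0 by edgeR) and 3 at 24 h (0.513%, 0.354% lower). At 2 h Flnc responded less by 3.25 ± 0.61 (95% interval -4.54 to -1.95, adjusted p = 0.012) and Tpm4 by 1.02 ± 0.23 (adjusted p = 0.046). At 24 h these were Flnc (-2.84 ± 0.64, adjusted p = 0.044), Tpm4 (-1.56 ± 0.24, adjusted p = 0.0043) and Ankrd1 (-2.77 ± 0.57, adjusted p = 0.030).
Tpm4 at 24 h passed in all 10 fits that left out 1 library. At 2 h Flnc was lost without untreated Cn-Ctl library 2 or 3 or SM-Cn-/- 2 h library 2 (adjusted p = 0.065, 0.077 and 0.052), and Tpm4 at 2 h passed in 1 of 11 such fits, Flnc at 24 h in 1 of 10 and Ankrd1 at 24 h in 2 of 10. At 6 h 1 member passed without Cn-Ctl 6 h library 1. Itga5 (-1.92 ± 0.48, 95% interval -2.96 to -0.89), Enah (-0.77 ± 0.25) and Filip1l (-1.02 ± 0.38) did not pass at 2 h (adjusted p = 0.095, 0.29 and 0.42).
For Rhob the interval of the difference at 2 h ran from -0.32 to 0.79.

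**Figure D5:**
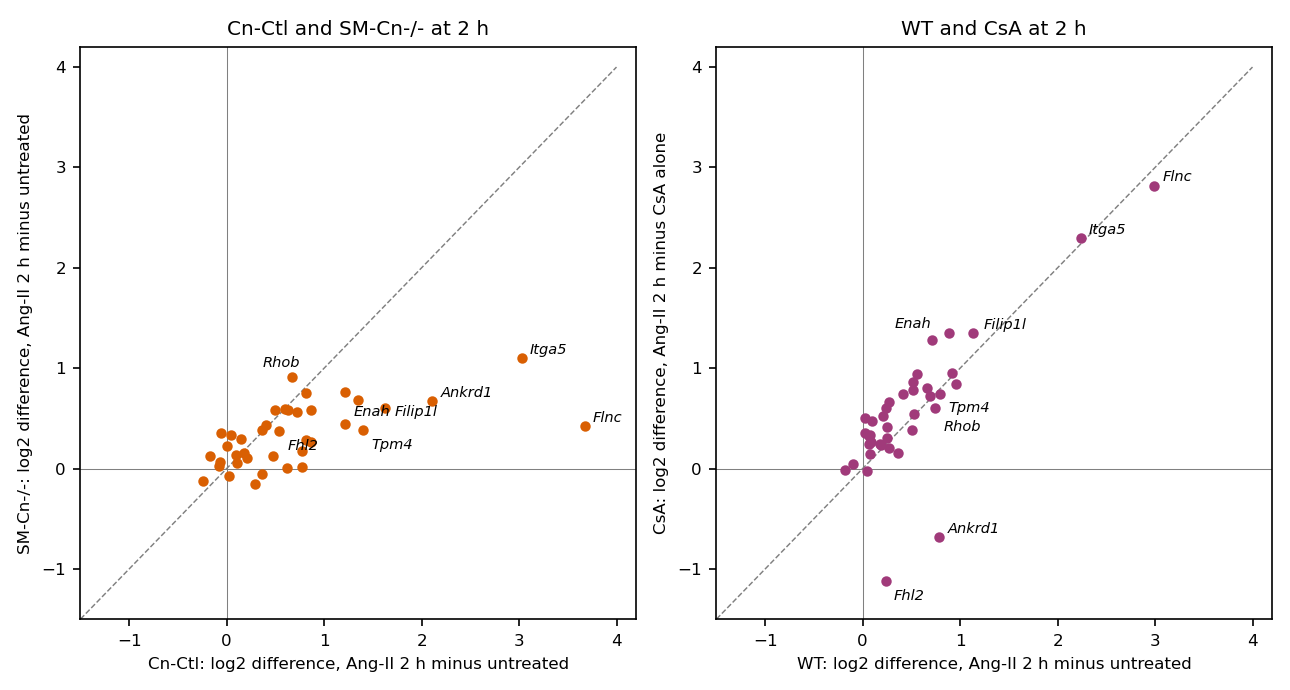
Log2 difference of each of the 39 genes after 2 h of Ang-II in SM-Cn-/- against that in Cn-Ctl (left) and with CsA against that in WT (right), 1 point a gene, with a dashed line where both are equal. Flnc lay at 3.67 and 0.43 on the left and at 2.99 and 2.82 on the right, while Ankrd1 and Fhl2 lay below 0 with CsA.

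With CsA alone 25 of 39 members were lower than in untreated WT and 0 were higher (25.2% of all genes differed, 11.4% lower). The largest differences were in Filip1l (-1.22 ± 0.19), Cnn3 (-1.01 ± 0.17), Enah (-1.01 ± 0.25), Actn1, α-actinin 1 (-0.85 ± 0.18), Pdlim7, a LIM protein of the filaments (-0.80 ± 0.16), and Flna, filamin A (-0.79 ± 0.23). The groups did not overlap for any of these 6 genes, which follows largely from their choice as the largest differences. The median over the members was -0.57 beside -0.21 for the most abundant genes. After quantile normalization, with the median of all genes at -0.11 instead of -0.02, 20 members were lower and 0 higher. Beside this stood the lower smooth muscle markers (summed signal of 7 markers 16576 to 18672 against 25780 to 35353). Without WT library 3 the count was 13, and without the libraries rich in Myh6, which left 1 CsA library against 2, it was 1.

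After Ang-II, 2 members were lower with CsA than in WT at 2 h, Filip1l and Srf (1.33% of all genes differed, 0.939% lower), and 6 at 24 h, Ankrd1 (-2.27 ± 0.45), Flnc (-1.29 ± 0.32), Tpm4 (-0.85 ± 0.14), Itgb1 (-0.62 ± 0.16), Actb (-0.58 ± 0.16) and Srf (5.58%, 3.54% lower). At 2 h summed smooth muscle markers were also lower with CsA without overlap (20201 to 26128 against 28589 to 35657). Endothelial (795 to 973 against 561 to 617) and fat markers (1799 to 4952 against 919 to 1536) were higher. At 24 h smooth muscle markers overlapped, while endothelial (761.3 to 1275 against 644 to 760.6) and fat markers (2109 to 6137 against 1474 to 1737) were higher.
The differences in Srf were -0.43 ± 0.11, -0.49 ± 0.11 and -0.40 ± 0.11 (adjusted p = 0.0099, 0.040 and 0.041). Srf passed the test in none of the 10 responses to Ang-II. Its treated libraries still lay above the untreated ones at 6 h in both genotypes and at 24 h in SM-Cn-/-. The Srf call in CsA alone was lost without WT library 3 (adjusted p = 0.059), that at 2 h in 4 of 6 and that at 24 h in 5 of 6 fits that left out 1 library. At 2 h the count was 0 without WT library 1 or 3 or CsA library 1, 1 without CsA library 3 and 5 without WT library 2, and at 24 h it was 1 to 3 without any 1 library other than WT library 3.

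The response with CsA minus that in WT passed for 0 members at 2 h (0.146% of all genes, with 4 members at an unadjusted p under 0.05 and 0 by edgeR) and for 7 at 24 h (9.42%, 4.89% lower and 4.53% higher). At 2 h the 95% intervals of the difference were -1.15 to 0.81 for Flnc, -0.80 to 0.92 for Itga5, -0.47 to 0.37 for Tpm4, -0.36 to 0.79 for Filip1l and -0.28 to 1.23 for Enah. At 24 h the difference was negative for Ankrd1 (-3.28 ± 0.63, adjusted p = 0.0077), Fhl2 (-1.84 ± 0.55), Tpm4 (-0.71 ± 0.19) and Tpm3 (-0.55 ± 0.16). It was positive for Myl9 (0.91 ± 0.26), Cnn3 (0.85 ± 0.23) and Zyx (0.84 ± 0.22). Myl9, Cnn3 and Zyx were lower at 24 h than untreated in WT, while none of them was called lower with CsA. After quantile normalization 3 differences were negative and 6 positive. Without the 6 libraries rich in Myh6 none passed, with Ankrd1 at -1.88 ± 0.43 (adjusted p = 0.11) and Fhl2 at -0.19 ± 0.31, but WT at 24 h and CsA alone were then 1 library each, with the spread taken from the other groups, so that this count says little. The Ankrd1 value passed in each of 12 fits that left out 1 library. The count was 1 without WT library 2 or 3, WT 24 h library 2, CsA library 2 or CsA 24 h library 1 or 2, 3 without CsA library 1 or 3, and 12 without CsA 24 h library 3.

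The wider pathway was followed in 94 further genes of actin, adhesion, small GTPase and Srf signalling, of which 92 were tested. In Cn-Ctl 18 rose and 0 fell at 2 h (4.72% of all genes rose), 8 rose at 6 h (2.72%), and 8 rose and 1 fell at 24 h (3.22% and 2.39%). In SM-Cn-/- there were 0, 2 and 1 called, all higher (1.13%, 2.34% and 0.790% of all genes changed), and at 2 h 25 had an unadjusted p under 0.05. Myocd, the Srf coactivator myocardin, rose at 2 h in Cn-Ctl (2.13 ± 0.43), WT (1.40 ± 0.28) and with CsA (1.43 ± 0.28). Rnd1, a small GTPase that opposes contraction, rose with it (1.70 ± 0.45, 1.14 ± 0.27 and 1.30 ± 0.27).
In SM-Cn-/- at 2 h 16 of 92 were lower than in Cn-Ctl (2.97% of all genes), among them Rnd3 (-1.56 ± 0.30), Rnd1 (-1.48 ± 0.41) and Myocd (-1.42 ± 0.39), and at 6 h 9 were lower and 1 higher (1.44% and 0.534%), led by Palld, the cross-linker palladin (-1.73 ± 0.23). At 24 h 11 were lower and 1 higher (4.94% of all genes differed, 2.68% lower), with Palld (-1.40 ± 0.25) and Wdr1, a cofactor of cofilin (-1.20 ± 0.17), first. With CsA alone 39 of 92 were lower and 4 higher than in untreated WT (25.2% of all genes differed, 11.4% lower), beside the lower smooth muscle markers given above, and without the libraries rich in Myh6 6 were lower and 0 higher.
In WT 22 rose and 2 fell at 2 h (21.4% of all genes changed, 11.4% rose) and 30 rose and 13 fell at 24 h (18.1% rose, 16.9% fell). With CsA 32 rose and 2 fell at 2 h (20.1% changed, 12.3% rose) and 16 rose at 24 h (5.20% rose). Without the libraries rich in Myh6 the WT counts were 20 and 1 at 2 h and 10 and 1 at 24 h, and those with CsA 14 and 0 at 2 h and 0 at 24 h. The test of the difference between responses passed for 0 of 92 between genotypes at any time (12, 5 and 9 at an unadjusted p under 0.05), for 0 between CsA and WT at 2 h (12) and for 8 at 24 h (9.42% of all genes), or 0 without the libraries rich in Myh6.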

How the data were processed

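Oligo-dT libraries were sequenced on a Genome Analyzer IIx. Bowtie 0.12.7 and RSEM 1.16 are named in the submitters' processing notes, with GRCm38. An untreated Cn-Ctl library had been discarded by the study. The signal as deposited by the authors is the reads of a gene plus 0.5 over a scaled library size (found from the values, of which all convert to whole reads within 0.01), so their scaling is part of each value.

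Protein-coding genes (GENCODE M21) with a signal of at least 1 in at least 2 libraries were kept. Log2(signal + 0.5) was fitted with limma 3.58.1 in R 4.3.3 (group means and an intensity trend, each experiment separately), and a gene was called at a Benjamini-Hochberg adjusted p under 0.05 over all genes. Intervals are 95% and use the residual degrees of freedom. The fits were tested on simulated data. Fewer of the changed genes were found in the genotype experiment than in the CsA experiment at each size of change. Genes that did not pass in the genotype experiment may therefore still have changed. Differences of weak genes are understated by the pseudocount.

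Alternatives were a pseudocount of 2, a group mean of at least 5, quantile normalization, edgeR 4.0.16 on recovered reads, only the groups compared, a replicate block, and leaving out each library. Leaving out the libraries with Myh6 at 100 or more was chosen after seeing the data. The members and lists were chosen with earlier results of these data known. All 39 members may be named, with library values for 16 preset ones and for those among the 3 largest called differences of a comparison. Pxn and Rock1 were added after their values were seen. P-values cover the spread between pools.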

Additional observations from a re-analysis of the deposited data

Results flagged for a closer look

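The response to Ang-II differed between arms, by the test of the difference itself, for 12 member values. In SM-Cn-/- against Cn-Ctl, Flnc (-3.25) and Tpm4 (-1.02) responded less at 2 h, and Flnc (-2.84), Tpm4 (-1.56) and Ankrd1 (-2.77) at 24 h. In CsA against WT at 24 h the difference was negative for Ankrd1 (-3.28), Fhl2 (-1.84), Tpm4 (-0.71) and Tpm3 (-0.55). It was positive for Myl9 (0.91), Cnn3 (0.85) and Zyx (0.84), which were lower at 24 h than untreated in WT. All are differences of log2 differences, from limma with an adjusted p under 0.05. Flnc at 2 h rested on untreated Cn-Ctl libraries at 137 and 111 against 2643, 2129 and 701 after Ang-II. Of the CsA values, that of Fhl2 moved with the heart transcript Myh6, whose signal was 947 in the library with the highest Fhl2. Ankrd1 moved with it less closely (correlation of log2 signal 0.56, against 0.78 for Fhl2). A single WT library at 24 h was low in Myh6, and it held more Ankrd1 than any untreated WT library. Without the libraries rich in Myh6 the difference shrank more for Fhl2 than for Ankrd1, with a single library left in WT at 24 h and in CsA alone. The part of heart tissue in either value was not tested. No group held 4 or more libraries, so single libraries were not tested as outliers.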

How the results depend on the processing

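Of 232 called values of single members, 232 kept their call with a pseudocount of 2 and with a group mean of at least 5, 222 with edgeR, 173 after quantile normalization and 162 with only the groups compared, and none changed direction. The cause of the losses was not tested.

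The members called changed by over 1.5 times as follows. With only the groups compared, Cn-Ctl had 3 at 6 h, 4 at 24 h and 5 from 2 to 24 h, SM-Cn-/- had 2 at 2 h, 3 at 6 h and 1 at 24 h, and CsA had 5 at 24 h and 6 from 2 to 24 h. Between genotypes the counts were then 7, 2 and 6 at 2, 6 and 24 h, between CsA and WT 0 at both times, and 4 for the difference of their responses at 24 h. After quantile normalization SM-Cn-/- had 1 at 24 h and 4 from 2 to 24 h, the genotypes differed in 5 at 2 h and 4 at 6 h, CsA and WT in 1 at 2 h, and the genotype responses in 1 at 2 h, as with edgeR (1). Without the libraries rich in Myh6, an alternative added after seeing the data, there were 5 in WT at 24 h, 11 and 0 with CsA at 2 and 24 h, 1 between CsA alone and WT, 1 and 0 between CsA and WT at 2 and 24 h, and 0 for the difference of responses at 24 h. This left 1 library each in WT at 24 h and CsA alone, assumed to vary like the other groups.

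Leaving out 1 library gave 8 to 13, 3 to 11 and 3 to 5 in Cn-Ctl at 2, 6 and 24 h, 0 to 2, 1 to 6 and 0 in SM-Cn-/-, 11 to 17 and 14 to 20 in WT at 2 and 24 h, and 16 to 21 and 2 to 16 with CsA. From 2 to 24 h the ranges were 4 to 9, 2 to 8, 16 to 18 and 9 to 14 in the same order of arms. Between genotypes they were 0 untreated, then 5 to 14, 3 to 8 and 5 to 10, and for their responses 0 to 2, 0 to 1 and 1 to 3. Between CsA and WT they were 13 to 25, 0 to 5 and 1 to 9, and for their responses 0 at 2 h and 1 to 12 at 24 h.

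Deviations from the group mean correlated from -0.37 to 0.34 between same-numbered libraries of the genotype experiment (median 0.06, against -0.04 for other pairs). In the CsA experiment they correlated from -0.39 to 0.38 (median -0.03, against -0.01 for other pairs). The numbers were not taken as pairing, though these values do not exclude it. With the replicate block 213 of the 232 values kept their call, and the counts were 7 in SM-Cn-/- at 2 h, 6 with CsA at 24 h, 1 and 3 between CsA and WT at 2 and 24 h, and 1 for the genotype responses at 2 h.

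Quantile normalization moved 16 of 26 medians by more than the spread between libraries. It turned the sign of 4, those from 2 to 24 h in Cn-Ctl (-0.15 to 0.13), WT (-0.13 to 0.12) and CsA (-0.10 to 0.07) and that of the genotype responses at 2 h (-0.10 to 0.11).

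The genotype libraries held fewer reads than the CsA libraries, and how far depth limits the weak members Ankrd1, Fhl2 and Pxn was not tested. With 2 libraries in untreated Cn-Ctl, each of its comparisons rests on that pair.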
